A study of Mus musculus with 12 samples.

Results

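Cytosolic ribosomal protein genes encode the protein parts of the ribosome. The 76 genes described here were chosen by their GENCODE vM21 symbols (Rps or Rpl with a number and an optional a, x or y, plus Rpsa and the stalk genes Rplp0, Rplp1 and Rplp2), out of 21853 genes in the table. They comprise 30 genes of the small subunit (Rps) and 46 of the large subunit (Rpl). Fau, Rps3a1 and Rack1, which also encode ribosomal proteins but carry other symbols, are given separately.

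The ribosome reads messenger RNA on its small subunit and joins amino acids on its large subunit. Its proteins are made in matched amounts, and their messenger RNAs typically begin with a C followed by a run of pyrimidines (the 5′ terminal oligopyrimidine, or TOP, motif), through which growth signals control their translation. Bone marrow is sensitive to this supply: inherited loss of 1 copy of any of several ribosomal protein genes causes Diamond-Blackfan anaemia, a failure of red cell production, and free ribosomal proteins such as RPL5 and RPL11 can bind MDM2 and stabilise p53.

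Messenger RNA of whole bone marrow cells from B6 mice was sequenced in 4 groups of 3 libraries, with all marrow taken at the day-14 point of an irradiation experiment. Control mice were not irradiated, and no vehicle or gavage is stated for them. TBI mice received 5 Gy of total body irradiation with gamma rays at 0.66 Gy/min followed by gavage of 100 µL of the vehicle, olive oil. TBI+DEIX mice received the same irradiation and oral DEIX at 25 mg/kg once a day for 14 days, and DEIX mice received DEIX at that dose without irradiation. The series title names the supplement deinoxanthin, a carotenoid made by bacteria. Because no vehicle is stated for controls, gavage and vehicle cannot be told apart from treatment in comparisons with them. The labels do not say whether a library is 1 animal or a pool, so p-values measure only the spread between these libraries.

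The starts of these genes are shown first because the TOP motif is the sequence feature that ribosomal protein genes share. RefSeq promoter sequences (GRCm38.p6) held 66 annotated starts for 56 of the 76 genes. At 13 of those 56 genes (23.2%), a start was a C followed by at least 4 more C or T bases, against 252 of 8725 other tested genes (2.89%). Windows are printed for part of the 13 genes, without Rpl14, Rpl28, Rpl38, Rplp2 and Rps10. Rpl35a and Rps21 also have annotated starts without a run. Each window below runs 5′ to 3′ from 15 bases before the start to 15 bases from the start onward. The run of C and T at that annotated start is in capitals.
Rps15a (chr7:118116133-118116162, minus strand): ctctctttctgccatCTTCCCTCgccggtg
Rpl35 (chr2:39005117-39005146, minus strand): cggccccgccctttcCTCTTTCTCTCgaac
Rpl15 (chr14:18270972-18271001, minus strand): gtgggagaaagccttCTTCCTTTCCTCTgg
Rpl35a (chr16:33056467-33056496, plus strand): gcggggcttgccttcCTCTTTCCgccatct
Rps6 (chr4:86857353-86857382, minus strand): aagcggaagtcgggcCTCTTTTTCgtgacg
Rps18 (chr17:33955651-33955680, minus strand): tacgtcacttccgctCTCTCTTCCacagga
Rps27 (chr3:90213634-90213663, minus strand): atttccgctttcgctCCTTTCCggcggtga
Rps21 (chr2:180257364-180257393, plus strand): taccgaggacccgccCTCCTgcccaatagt

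In these windows of 30 bases, CTTTCC stood on either strand in 16.1% of the 56 genes against 3.11% of other genes, and CTCTTT in 14.3% against 1.91%. In the full 300 bases around a start (250 of them before it), the ETS-type motif CGGAAGT stood on either strand in 35.7% of the 56 genes against 16.1%. TATAAA (10.7% against 8.34%) and the E-box CACGTG (10.7% against 12%) had closer shares, and GCCATCTTG stood in 1.79% against 2.85%. Annotated starts can lie a few bases from the true one, so a gene without a run in this window is a statement about these letters alone.

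All 76 genes passed the filter for testing (at least 1 FPKM in at least 3 libraries, 10994 genes in all) and none was listed at 0 in any library. FPKM scales fragments to transcript length and to the mapped fragments of a library, so levels of genes can be set side by side. The relation of values to coding length differed between libraries, as given below, so such levels are approximate, above all for short genes. Each of the 76 lay in the top 5% of tested genes by mean FPKM, with the lowest at percentile 96.1. Single values ran from 90.8 FPKM (Rps20 in TBI+DEIX replicate 1) to 4350 FPKM (Rps27 in control replicate 3). By mean over the 12 libraries, Rps27, a small subunit zinc-finger protein, led with 2429 FPKM, followed by Rpl41, the shortest of the proteins, at 2262, Rplp1 of the stalk at 2035, Rps29 at 1909 and Rps9 at 1577. At the other end stood Rps20 at 169 FPKM, the X-linked Rpl39 at 262, Rpl15 at 319, Rpl21 at 353 and Rpl22 at 358. Many of these genes have near-identical processed pseudogenes and some have close paralogs, and how shared reads were assigned is not given in the sources used here, so single-gene levels are uncertain to that extent.

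TBI+DEIX replicate 1 stood apart from the other libraries. It held the lowest of the 12 values for 70 of the 76 genes, and its median gene lay 1.32 below the control mean (value -1.32) on the log2(FPKM + 1) scale used for all changes here. TBI+DEIX replicates 2 and 3 were at -0.53 and -0.45. The within-group SD of log2(FPKM + 1), as a root mean square over the 76 genes, was 0.593 in TBI+DEIX, 0.233 in DEIX, 0.207 in control and 0.139 in TBI. Over other tested genes it was 0.416, 0.236, 0.139 and 0.226 in that order, so TBI+DEIX had the widest spread there too. Main counts and medians that include this library are also given without it, from a fit of the other 11 libraries. In TBI+DEIX against control, 41 of the 76 fitted changes were over 1.5 times as deep with it as without it.

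**Figure D1:**
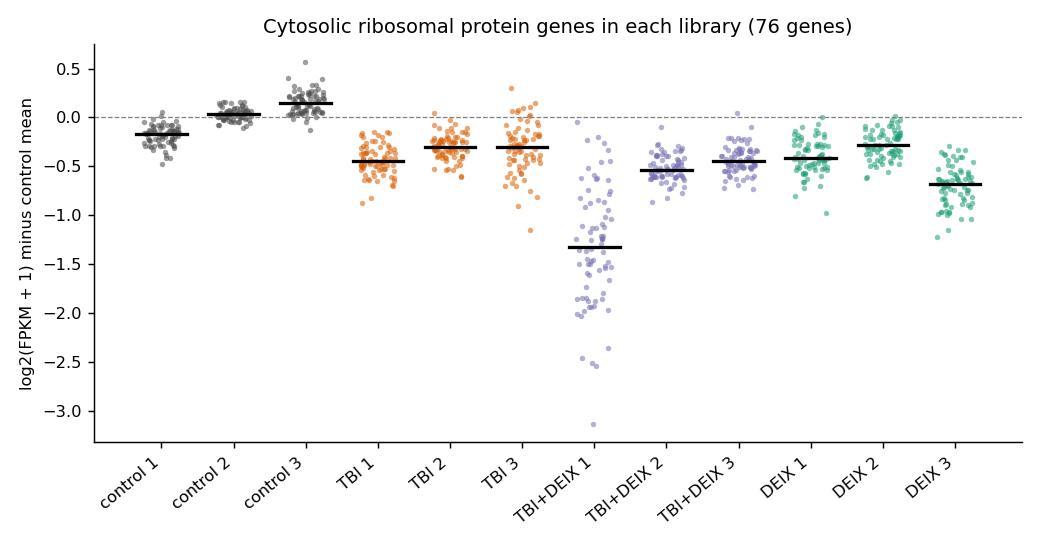
Each point is 1 of the 76 genes in 1 library, as log2(FPKM + 1) minus that gene's mean over the 3 control libraries; black lines are medians. Medians ran from -0.17 to 0.15 in control, -0.45 to -0.30 in TBI, -0.68 to -0.28 in DEIX and -1.32 to -0.45 in TBI+DEIX.

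The ribosomal protein genes were highest in control marrow. The control mean was the highest of the 4 group means for 75 of the 76 genes, the exception being Rps2, and the TBI+DEIX mean was the lowest for 74, the exceptions being Rps9 (lowest in TBI) and Rplp2 (lowest in DEIX). Without TBI+DEIX replicate 1 the lowest mean lay in TBI+DEIX for 46 genes, in DEIX for 29 and in TBI for 1. Control replicate 3 held the highest of the 12 values for 56 genes, control replicate 2 for 16, and TBI replicate 3 for 4 (Rpl4, Rpl6, Rplp0 and Rps2).

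Summed, the 76 genes made up 13.2, 14.4 and 17.7% of all FPKM in the control libraries (15.1% ± 2.32, SD, n = 3). They made up 10.7, 12.5 and 11.7% in TBI (11.6% ± 0.876, SD, n = 3), 9.15, 11.4 and 8.58% in DEIX (9.70% ± 1.47, SD, n = 3) and 7.07, 10.2 and 7.58% in TBI+DEIX (8.28% ± 1.67, SD, n = 3). No library of a treated group reached the lowest control, and TBI+DEIX lay below TBI throughout, while TBI+DEIX and DEIX overlapped. In exact two-sided permutation tests of 3 against 3 libraries, TBI, DEIX and TBI+DEIX each gave p = 0.1 against control, as did TBI+DEIX against TBI, which is the smallest p that 20 arrangements allow (0.125 after Benjamini-Hochberg adjustment over 5 pairs). TBI+DEIX against DEIX gave an exact p of 0.4. Without replicate 1 the TBI+DEIX mean was 8.88% and that exact p was 0.7.

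The total that the share is taken from includes S100a8, S100a9 and Ngp, neutrophil genes of very high level that were listed at 0 in some libraries and above 10000 FPKM in others. Leaving them out of the total put the ribosomal share at 17.0% in control, 13.3% in TBI, 11.9% in DEIX and 9.55% in TBI+DEIX, in the same order of groups. On that total TBI+DEIX (8.17, 10.2 and 10.3%) no longer overlapped DEIX (11.6, 13.6 and 10.4%), and the exact permutation p of the pair was 0.1, the smallest possible, so whether the 2 groups overlap depends on the total used. The ratio of summed small to summed large subunit FPKM was 0.816 to 0.827 in control, 0.765 to 0.804 in TBI and 0.817 to 0.823 in DEIX. It was 0.831 and 0.816 in TBI+DEIX replicates 2 and 3 and 0.722 in replicate 1, so all 3 TBI libraries lay below the control range and TBI+DEIX replicate 1 was the lowest of the 12.

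**Figure D2:**
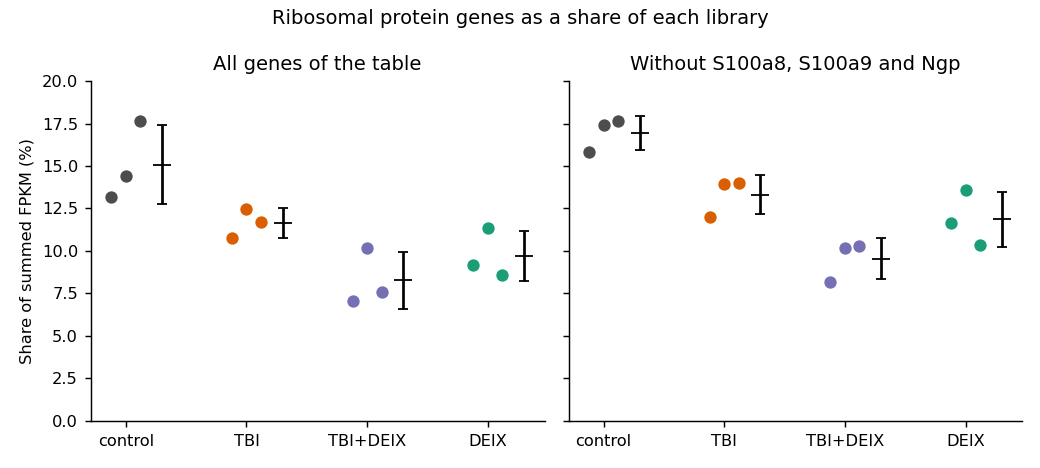
Points are libraries and bars are mean ± SD of 3 libraries, for the summed FPKM of the 76 genes as a percentage of the library's summed FPKM over all genes (left) or all genes but S100a8, S100a9 and Ngp (right). Control libraries lie at 13.2 to 17.7% on the left, above the 3 treated groups.

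TBI against control compares irradiated, vehicle-fed mice with unirradiated mice at day 14. The fitted change lay below 0 for 75 of the 76 genes (42.2% of all tested genes), with a median of -0.34 against 0.05 over all tested genes, and the only value above 0 was that of Rps2 (0.06, SE 0.19), which was at -0.01 without control replicate 1 and -0.06 without TBI replicate 3. For 51 genes every TBI library was below every control library, where 16.3% of all tested genes were. No gene passed the test in limma (Benjamini-Hochberg adjusted p under 0.05, with 3.1% of tested genes called lower and 3.99% called in either direction).

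Rpl13a, a large subunit protein also known as part of an interferon-gamma-activated inhibitor of translation, came nearest to a call. It was at 1187, 1390 and 1540 FPKM in control and 867, 948 and 918 FPKM in TBI, so the groups did not overlap, and the change was -0.58 (SE 0.20, limma adjusted p = 0.153). Rps2, a small subunit protein near the entry of the messenger RNA, was at 1159, 1294 and 1408 FPKM in control and 1152, 1320 and 1577 FPKM in TBI, with the highest and the lowest value both in TBI. Without TBI+DEIX replicate 1 in the model, which shares its estimate of spread across groups, 8 genes were called lower in TBI: Rps15a, Rpl22, Rps21, Rpl37, Rpl17, Rpl13a, Rpl39 and Rps27. In that fit 7.22% of all tested genes were called lower, so 8 of 76 is near the background.

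DEIX against control compares the supplement with no supplement in unirradiated mice. All 76 fitted changes lay below 0, where 47.7% of tested genes did, with a median of -0.45 against 0.02 over all tested genes. For 59 genes every DEIX library was below every control library, where 17.2% of tested genes were. No gene was called in limma, where 2.72% of tested genes were called lower and 7.24% in either direction.

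Rpl13a was again nearest, at 863, 969 and 696 FPKM in DEIX, all below the control libraries given above, with a change of -0.71 (SE 0.20, limma adjusted p = 0.059). Rps19, the gene most often mutated in Diamond-Blackfan anaemia, was at 593, 761 and 845 FPKM in control and 510, 537 and 402 FPKM in DEIX, again without overlap, and its change of -0.60 (SE 0.22) had a limma adjusted p of 0.12. Leaving TBI+DEIX replicate 1 out of the model, 42 of the 76 genes were called lower in DEIX, where 8.51% of tested genes were. In a model of the control and DEIX libraries alone 13 were, where 7.78% of tested genes were. Calls in this comparison therefore changed with a library of another group, through the shared spread, while the fitted median of -0.45 did not move.

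TBI+DEIX against control was the comparison with calls in the fit of all 12 libraries. Of the 76 genes 43 fell in limma, where 13.1% of tested genes were called lower and 30% in either direction, and none rose. All 76 changes lay below 0, where 47.9% of tested genes did. The median change was -0.79 against 0.02 over all tested genes. Every TBI+DEIX library was below every control library for 72 genes, where 21.1% of tested genes were; the 4 exceptions were Rpl41, Rplp2, Rps27a and Rps9. The called genes had mean FPKM 26.3 to 52.6% lower than control (median 41.5%). Small and large subunit genes gave similar counts, 18 of 30 and 25 of 46, with medians of -0.78 and -0.80. Leaving out TBI+DEIX replicate 1, 42 genes were called, where 15.4% of tested genes were called lower, 38 of them among the 43 (Rpl27a, Rpl28, Rpl36, Rps14 and Rps28 were lost), and the median was -0.49. The changes of the 43 genes then ran from -0.79 to -0.35, and both remaining TBI+DEIX libraries were below every control library for 73 of the 76 genes, as for 31.3% of tested genes. With only the control and TBI+DEIX libraries in the model 5 were called (Rps20, Rpl10a, Rpl12, Rpl3 and Rpl39), a share below the 8.86% of tested genes called lower in that model. With array weights, which let libraries count unequally, the median was -0.54, as it was in DEIX against control. Leaving out 1 library at a time, 10 to 58 of the 76 genes were called in TBI+DEIX against control. The lower of these counts are given in the closing section with their all-gene shares.

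Those same 5 genes were called under every one of the 23 other settings tried. Rpl12, a protein at the base of the stalk, was at 482, 569.9 and 571 FPKM in control and 249, 316 and 323 FPKM in TBI+DEIX. Its change of -0.87 (SE 0.17) had the smallest adjusted p of the 76 genes in limma, 0.00396. The 3 TBI+DEIX values lay well below the 3 control values, and the TBI (372, 427 and 479) and DEIX libraries (371, 470 and 331) lay between the 2 groups' means.

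Rpl3, which reaches toward the peptidyl transferase centre, was at 754, 816 and 821 FPKM in control and 433, 544 and 540 FPKM in TBI+DEIX (change -0.66, SE 0.15, limma adjusted p = 0.00745). Rpl10a was at 607, 661 and 756 FPKM in control and 399.5, 439.5 and 458 FPKM in TBI+DEIX (-0.64, SE 0.15, limma adjusted p = 0.00955). For both, TBI+DEIX replicate 1 was lowest but replicates 2 and 3 were below every control library as well.

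Rps20, the member with the lowest level, was at 185, 236 and 217 FPKM in control and 90.8, 135 and 139 FPKM in TBI+DEIX (-0.82, SE 0.18, limma adjusted p = 0.00612). Rpl39, a short protein of the exit tunnel, was at 296, 422 and 430 FPKM in control and 123, 212 and 233 FPKM in TBI+DEIX (-1.04, SE 0.24, limma adjusted p = 0.00917). Neither overlapped between the groups.

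The 5 largest falls among called genes without overlap were led by the X-linked Rpl36a, at 842, 993 and 1129 FPKM in control and 271, 540 and 594 FPKM in TBI+DEIX (-1.15, SE 0.28, limma adjusted p = 0.0104). Rps15a, whose start is printed above, was at 553, 680 and 745 FPKM in control and 170, 397 and 421 FPKM in TBI+DEIX (-1.10, limma adjusted p = 0.0164). Rpl22, a large subunit protein that is also known for its part in lymphocyte development, was at 425, 500 and 578 FPKM in control and 136, 299 and 322 FPKM in TBI+DEIX (-1.07, limma adjusted p = 0.0149). In all 3, replicate 1 of TBI+DEIX was the lowest by far, and the other 2 values of its group still lay under every control value. Rps26 (-1.07, limma adjusted p = 0.0251) and Rpl35 (-1.05, limma adjusted p = 0.0345) showed the same arrangement, at 244, 586 and 613 FPKM and at 124, 324 and 352 FPKM in TBI+DEIX against 849 to 1063 and 470 to 517 FPKM in control. Without replicate 1 the changes were -0.79 (Rpl36a), -0.68 (Rps15a), -0.68 (Rpl22), -0.64 (Rps26) and -0.57 (Rpl35), all still called.

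The deepest fitted changes belonged to genes that did not pass. Rps27 was at 3377, 3527 and 4350 FPKM in control and 422, 2564 and 2377 FPKM in TBI+DEIX (-1.44, SE 0.57, limma adjusted p = 0.0795). Rps21, whose start is also printed above, was at 1329, 1518 and 2147 FPKM in control and 279, 1076 and 1159 FPKM in TBI+DEIX (-1.21, SE 0.45, limma adjusted p = 0.0637). Rps29 was at 2073, 2974 and 3244 FPKM in control and 476, 1785 and 1943 FPKM in TBI+DEIX (-1.20, SE 0.46, limma adjusted p = 0.0718). In each of these genes replicate 1 was far below the other TBI+DEIX values, and the SE exceeded the median of 0.226 over the called genes. Without it the changes were -0.59 (Rps27), -0.55 (Rps21) and -0.54 (Rps29), none called.

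At the shallow end, Rps9 was at 1552, 1681 and 2036 FPKM in control and 1040, 1629 and 1801 FPKM in TBI+DEIX, overlapping, with a change of -0.27 (SE 0.24, limma adjusted p = 0.425), or -0.03 without TBI+DEIX replicate 1. Rpsa, also known as the laminin receptor, also had a change of -0.27, Rpl6 one of -0.30 and Rplp0 one of -0.33, none of them called. In 5 genes replicate 1 was the highest TBI+DEIX library. For Rplp2 it was at 889 FPKM against 580 and 625 FPKM in replicates 2 and 3, which is 1.42 times the next value, while for Rpl14, Rpl4, Rpl6 and Rpsa it was 1.02 to 1.17 times the next value.

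**Figure D3:**
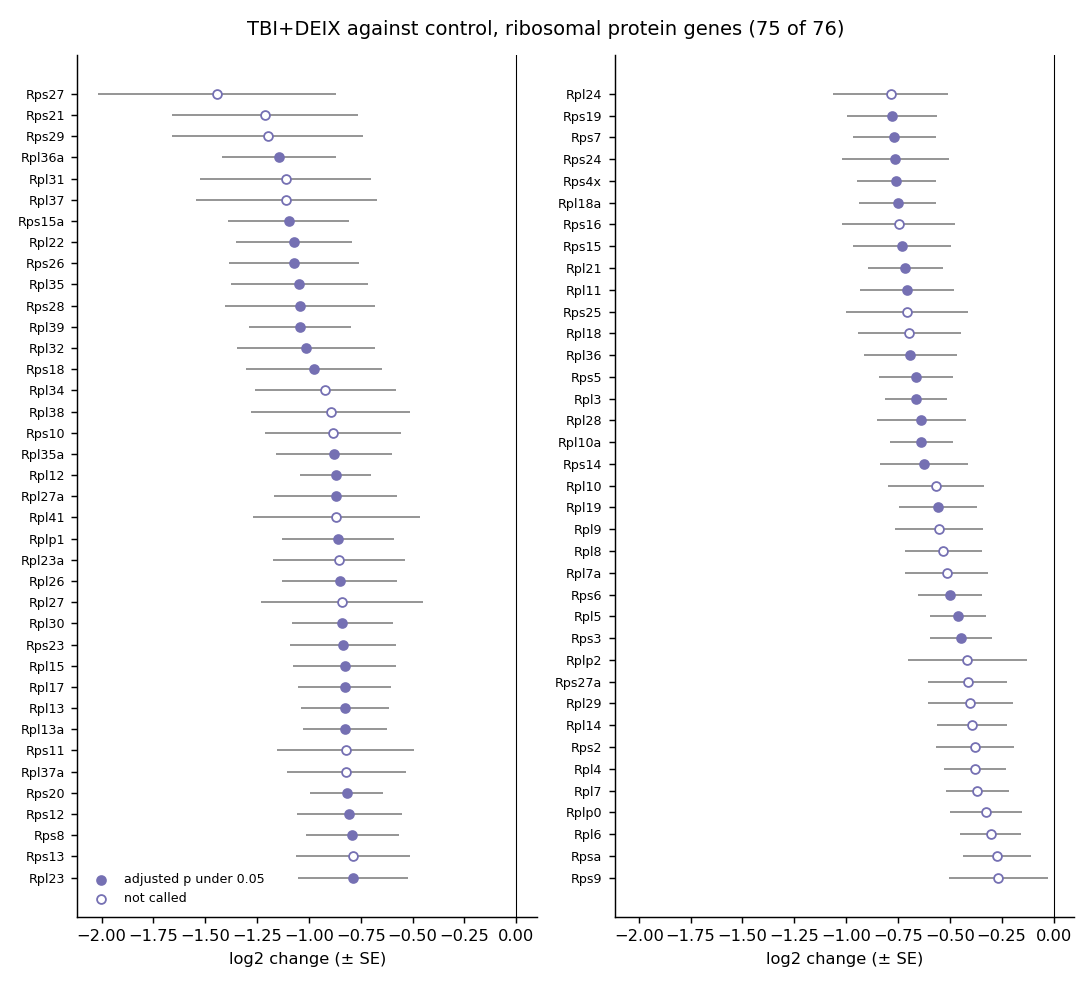
Change of 75 of the 76 genes in log2(FPKM + 1), TBI+DEIX minus control, with its SE from limma over 12 libraries; filled points passed an adjusted p of 0.05. All 75 points lie left of 0, from -1.44 (Rps27) to -0.27 (Rps9), and 42 are filled.

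By role, of 23 genes mutated in Diamond-Blackfan anaemia 15 fell in TBI+DEIX against control in limma, with a median of -0.84, and none rose. Among them were Rps15a (-1.10), Rps26 (-1.07), Rpl35 (-1.05), Rps28 (-1.04), Rpl35a (-0.88), Rpl26 (-0.85), Rpl15 (-0.83), Rpl17 (-0.83), Rps20 (-0.82), Rps19 (-0.78), Rps7 (-0.77), Rps24 (-0.76), Rpl11 (-0.71) and Rpl5 (-0.46). The count was again 15 without TBI+DEIX replicate 1, with Rpl31 gained and Rps28 lost, but the median was -0.52, and the changes of the genes just listed ran from -0.68 (Rps15a) to -0.38 (Rpl5). Of 9 genes whose proteins bind MDM2, 7 fell, with a median of -0.71; beside Rpl26, Rps7, Rpl11 and Rpl5 these were Rpl23 (-0.79), Rps14 (-0.63) and Rps3 (-0.44). Without that library 6 fell, Rps14 being lost, with a median of -0.41. Both full-set counts read against 43 of 76 for the whole family and 13.1% of all tested genes.

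Rpl5 and Rpl11 form, with 5S ribosomal RNA, the particle that binds MDM2. Rpl5 was at 491, 497 and 431 FPKM in control and 307, 359 and 365 FPKM in TBI+DEIX, and Rpl11 at 516, 609 and 572 FPKM in control and 237, 395 and 439 FPKM in TBI+DEIX. Neither overlapped, and TBI+DEIX replicate 1 was lowest in both. Of 14 tested p53 target genes, 5 rose in the same comparison and none fell in limma, where 16.9% of all tested genes rose. With TBI+DEIX replicate 1 left out, 7 rose, against 23.2% of tested genes. Mdm2 itself rose by 0.60 (limma adjusted p = 0.000512) and by 0.61 without that library.

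Of the 3 stalk genes, through which elongation factors dock, Rplp1 fell (-0.86, limma adjusted p = 0.0334), and Rplp0 (-0.33) and Rplp2 (-0.42) were not called. Of the 4 X-linked genes, Rpl36a (-1.15), Rpl39 (-1.04) and Rps4x (-0.76) fell, and Rpl10 had a change of -0.57 (limma adjusted p = 0.089). The same 4 genes of these lists were called without TBI+DEIX replicate 1, and Rplp2 was at -0.60 and Rpl10 at -0.28. These counts and the next ones read against 43 of 76 for the family and 13.1% of all tested genes called lower. Of the 13 genes with a pyrimidine run at a start 7 were called (Rpl15, Rpl28, Rpl35, Rpl35a, Rps15a, Rps18 and Rps6) with a median change of -0.89 over the 13. Of the 43 with a start but no run 23 were called, with a median of -0.78. Without that library the counts were 7 of 13 (Rpl14 gained and Rpl28 lost) and 24 of 43, with medians of -0.53 and -0.44.

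TBI+DEIX against TBI compares DEIX with vehicle in irradiated mice. All 76 fitted changes lay below 0, where 49.5% of tested genes did, with a median of -0.42 against 0.00 over all tested genes, and 34 genes had every TBI+DEIX library below every TBI library, where 12.7% of tested genes did. No gene was called in limma, where 3.41% of tested genes were called lower and 8.1% in either direction. Rpl3 came nearest, at 691, 691 and 775 FPKM in TBI against the TBI+DEIX values given above (-0.51, SE 0.15, limma adjusted p = 0.0577), followed by Rps20, at 174, 178 and 190 FPKM in TBI (-0.59, SE 0.18, limma adjusted p = 0.0625). Both were without overlap. Without TBI+DEIX replicate 1 the median was -0.12, 65 of 76 changes lay below 0 and Rpl3 was the only gene of the 76 called (-0.41, limma adjusted p = 0.030), where 9.6% of tested genes were called lower, so the family had fewer calls than that share gives. In 36 genes the 2 remaining libraries were below all TBI libraries, where 26.3% of tested genes were.

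TBI+DEIX against DEIX compares irradiated with unirradiated mice that all received DEIX. The median change was -0.31 against 0.02 over all tested genes, with 75 of 76 values below 0 (Rplp2 at 0.01, and at -0.18 without TBI+DEIX replicate 1), where 45.1% of tested genes were. No gene was called in limma, where 1.76% of tested genes were called lower and 2.57% in either direction. In 5 genes the libraries did not overlap (Rpl10a, Rpl12, Rpl3, Rpl5 and Rps4x), a share below the 8.96% of all tested genes. Without TBI+DEIX replicate 1 the median was -0.04 and 45 changes lay below 0. The interaction, which is the irradiation effect under DEIX minus that without DEIX, had a median of 0.03, 30 values below 0 (53.5% of all tested genes), no gene called in limma (0.2% of tested genes were) and none with an unadjusted p under 0.05. Without TBI+DEIX replicate 1 its median was 0.33 against -0.02 over all tested genes, and 8 values lay below 0. Of the 76 genes 15 then had an unadjusted p under 0.05 in limma. In that fit 2.56% of all tested genes were called higher and 0.447% lower. With array weights the median was 0.34 and 24 genes had such a p. All-gene shares for the 8, 15 and 24 are not given, so these counts cannot be set against a background. No gene of the 76 was called in either fit.

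These comparisons share libraries, so they are not independent of one another. For the same genes side by side, Rpl36a changed by -0.48 in TBI, -0.66 in DEIX and -1.15 in TBI+DEIX, each against the same controls; Rpl12 by -0.35, -0.48 and -0.87; and Rpl13a by -0.58, -0.71 and -0.82. Of these 9 values the 3 for TBI+DEIX were called. Those 3 were -0.79, -0.75 and -0.65 without TBI+DEIX replicate 1.

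The size of the change ran with the length of the coding sequence, which spans 75 to 1257 bases (median 454.5) over the 76 genes. In TBI+DEIX replicate 1, the median deviation from the control mean by consecutive length classes was -2.03 for the 9 genes of up to 300 bases, -1.50 for 27 genes of up to 450, -1.24 for 19 genes of up to 600, -0.69 for 18 genes of up to 900 and -0.46 for 3 genes above 900. Other tested genes in that library were at -0.84, -0.70, -0.30, -0.20 and -0.00 in the same classes, so other short genes were lower there too, and the medians of ribosomal protein genes lay below those of other genes of their length. In TBI+DEIX replicates 2 and 3 the ribosomal protein genes of up to 300 bases were at -0.58 and -0.48 and those above 900 at -0.40 and -0.40.

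**Figure D4:**
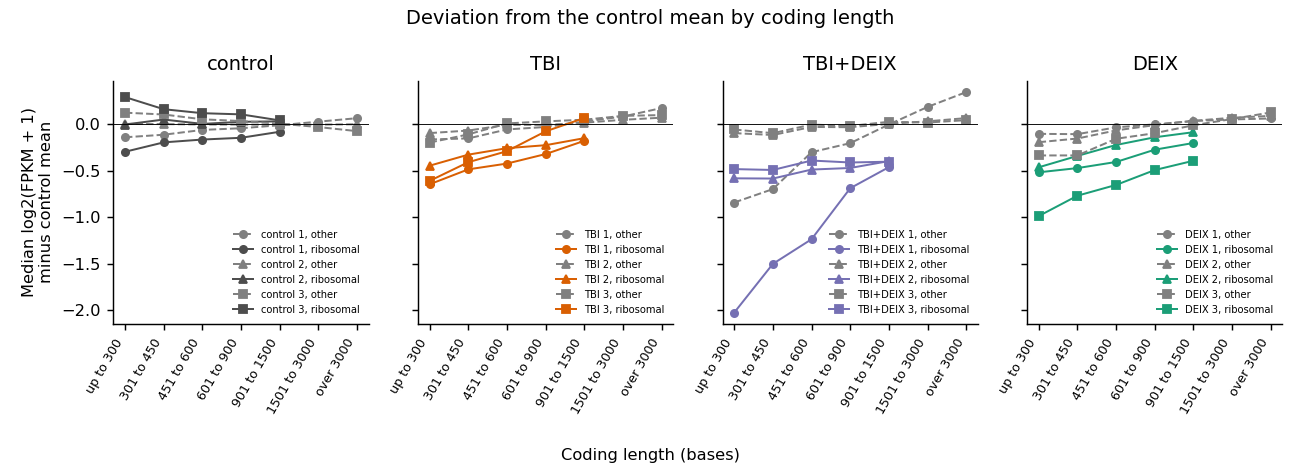
Median log2(FPKM + 1) minus the control mean for genes grouped by coding length in bases, 1 panel per group and 1 marker shape per library; solid lines are ribosomal protein genes and dashed grey lines other tested genes. The steep solid line is TBI+DEIX replicate 1, from -2.03 for the shortest to -0.46 for the longest ribosomal protein genes.

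Across the 76 genes, Spearman's rho between coding length and change was 0.73 for TBI against control, 0.78 for DEIX against control, 0.73 for TBI+DEIX against control, 0.44 for TBI+DEIX against TBI, 0.36 for TBI+DEIX against DEIX and -0.41 for the interaction. Across 10918 other genes it was 0.22, 0.22, 0.24, 0.15, 0.16 and -0.08. Leaving out TBI+DEIX replicate 1, rho over the 76 genes was 0.36 for TBI+DEIX against control and -0.72 for the interaction. It turned to -0.48 for TBI+DEIX against TBI and to -0.50 for TBI+DEIX against DEIX, so the positive relation in these 2 comparisons rests on that library. These describe genes within the same libraries, which are not independent replicates, and carry no test. Calls in TBI+DEIX against control stood at 2 of 9 genes of up to 300 bases, and, in the next classes, at 21 of 27 up to 450, 9 of 19 up to 600, 10 of 18 up to 900 and 1 of 3 above 900. The shortest genes had the deepest median change (-1.04) and the largest median SE (0.40), and the longest had the shallowest (-0.38) with an SE of 0.15. Without that library the calls by class were 2, 19, 8, 11 and 2, and the median changes of the shortest and longest genes were -0.54 and -0.40.

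When the length trend of the other genes was subtracted in each library, the ribosomal protein genes still lay below the control mean in each treated library. Medians were then -0.36, -0.26 and -0.25 in TBI, -0.35, -0.18 and -0.50 in DEIX, and -0.88, -0.48 and -0.42 in TBI+DEIX. On that scale 57 genes were called in TBI+DEIX against control, where 14.7% of tested genes were called lower, 42 of them among the 43. What lies behind the length trend was not tested.

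Relative to the median of all 76 genes in the same library, Rps27 varied most (SD 0.58 over 12 libraries), from 1.99 above the median in control replicate 1 to -0.11 in TBI+DEIX replicate 1. Rplp2 lay 0.97 above the median in TBI+DEIX replicate 1 and 0.28 and 0.25 above in control replicate 3 and TBI replicate 3, but below it in the other 9 libraries. Rps15, Rpl9, Rps19, Rpl18 and Rpl36 moved most closely with the median; for Rps15 the SD was 0.05.

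Among ribosomal proteins outside the symbol rule, Rps3a1 fell in TBI+DEIX against control. Rps3a1, a small subunit protein, was at 1001, 1145 and 1350 FPKM in control and 608, 674 and 685 FPKM in TBI+DEIX, without overlap (-0.82, SE 0.19, limma adjusted p = 0.0078). Rack1, the signalling scaffold on the small subunit, had a change of -0.44 (limma adjusted p = 0.0503), and without TBI+DEIX replicate 1 it was called (-0.48, limma adjusted p = 0.0234). Fau, which is made as a fusion with a ubiquitin-like protein, had a change of -0.53, or -0.25 without that library, and was not called in either fit.

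There were 8 paralogs of these genes among those measured, of which 6 were tested. Rpl22l1, the paralog of Rpl22, fell by 0.97 (limma adjusted p = 0.0169), from 74.0, 120 and 134 FPKM in control to 42.1, 60.2 and 61.5 FPKM in TBI+DEIX. Rpl36al (-0.80), Rps27l (-0.59), Rps27rt (-1.84), Rpl3l (-0.07) and Rpl7l1 (0.11) were not called. The median of the 6 was -0.70, and -0.22 without TBI+DEIX replicate 1, where Rpl22l1 was still the 1 called gene. Rps27rt, a copy related to Rps27, was at 25.8, 33.6 and 34.4 FPKM in control and 0.687, 21.0 and 18.5 FPKM in TBI+DEIX, and how reads of such copies were split is not known.

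In comparisons with control, the medians of the other lists of the translation machinery lay nearer to the median of all tested genes, where 13.1% were called lower and 16.9% higher in TBI+DEIX (15.4% and 23.2% without replicate 1). Mitochondrial ribosomal proteins, which serve the separate ribosome of mitochondria, had medians of 0.02 in TBI, -0.21 in DEIX and -0.21 in TBI+DEIX against control, with 4 of 78 called lower and none higher in the last (Mrps28, Mrpl23, Mrpl28 and Mrpl49). The TBI+DEIX median was -0.08 without replicate 1, with 5 called lower. Elongation factors had medians of 0.05, -0.28 and -0.24, and 2 of 8 fell in TBI+DEIX: Eef1b2 (-0.68, limma adjusted p = 0.00458) and Eef1g (-0.47, limma adjusted p = 0.0439), both of the complex that reloads the factor carrying transfer RNA. Of 19 other genes with TOP messages, a list that contains those 2, 3 fell in TBI+DEIX against control and none rose, the third being Naca (-0.54), with a list median of -0.37; Nap1l1 fell in TBI+DEIX against TBI (-0.49, limma adjusted p = 0.0481). Eef1g and Naca were not called without TBI+DEIX replicate 1, the elongation factor median was -0.23, and the TOP list median was -0.25 with 3 of 19 called, near the share of all genes.

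Initiation factors had a median of 0.06 in TBI+DEIX against control, where 2 of 37 rose (Eif4g3 by 0.66 and Eif5 by 0.52) and 1 fell (Eif3m, -0.35). Ribosome biogenesis genes, which process ribosomal RNA and assemble subunits, had a median of 0.11 over 65 genes there, with 2 lower (Nop10, -0.71, and Imp3, -0.59) and 1 higher (Utp14a, 0.26); without TBI+DEIX replicate 1 that median was -0.06. Of 38 genes of RNA polymerases I and III, 5 fell and 1 rose, with a median of -0.06, and without that library 8 fell and 1 rose, with a median of -0.12; 5 of 38 is close to the share of all tested genes called lower. Eif5 and Nop10 were not called without it, and the initiation factor median was 0.01. Each of these medians lay closer to the all-gene median of 0.02 than the -0.79 of the cytosolic ribosomal protein genes (0.01 and -0.49 without that library), a difference given here as a description and without a test. It did not hold in TBI+DEIX against TBI once TBI+DEIX replicate 1 was left out: medians were then -0.12 for the 76 genes, -0.31 for elongation factors, -0.30 for the TOP list, -0.24 for ribosome biogenesis, -0.16 for initiation factors, and -0.14 for both mitochondrial ribosomal proteins and RNA polymerases I and III.

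**Figure D5:**
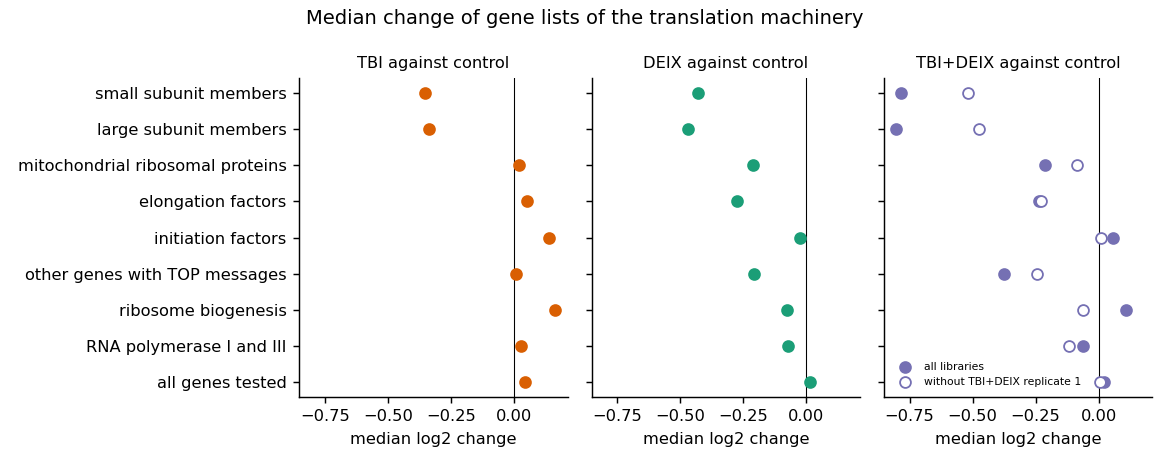
Median change in log2(FPKM + 1) against control of small and large subunit genes and of other gene lists, with all genes tested in the bottom row; open points leave out TBI+DEIX replicate 1. In each panel the 2 cytosolic subunit rows lie farthest left, at -0.78 and -0.80 in TBI+DEIX (-0.52 and -0.48 without that library).

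The marrow libraries also differed in cell markers, and whether these differences have a part in the ribosomal protein values was not tested. In whole marrow, fewer cells rich in these messages and less message per cell cannot be told apart. Summed FPKM of 14 B lineage markers was 637 to 776 in control, 38.4 to 458 in TBI, 91.9 to 134 in DEIX and 10.5 to 244 in TBI+DEIX, and 12 of the 14 fell in TBI+DEIX against control. Summed FPKM of 14 erythroid markers was 4114 to 6228 in control, 2368 to 9744 in TBI, 1682 to 9532 in DEIX and 374 to 2109 in TBI+DEIX, with 9 of the 14 called lower in TBI+DEIX. Stem and progenitor markers fell for 6 of 10 tested and maturing neutrophil markers rose for 5 of 15 in that comparison, where 13.1% of tested genes fell and 16.9% rose. When TBI+DEIX replicate 1 was left out, 9 of 14 B lineage, 2 of 14 erythroid and 7 of 10 stem and progenitor markers fell and 10 of 15 neutrophil markers rose, where 15.4% of tested genes fell and 23.2% rose. Summed FPKM of 11 T and NK cell markers was 228 to 298 in control, 127 to 169 in TBI, 187 to 232 in DEIX and 78.7 to 218 in TBI+DEIX. All 10 tested had changes below 0 in each comparison with control, with medians of -0.89 in TBI, -0.45 in DEIX and -0.71 in TBI+DEIX (-0.21 without replicate 1). In that order 3, 2 and 4 of them were called lower, where 3.1, 2.72 and 13.1% of tested genes were. With TBI+DEIX replicate 1 left out of the model, 9, 5 and 4 were called lower, where 7.22, 8.51 and 15.4% of tested genes were. In TBI+DEIX against control, 1 of 8 promyelocyte, 3 of 15 monocyte and macrophage and 3 of 20 proliferation markers fell, and 1 monocyte and macrophage marker rose. Without TBI+DEIX replicate 1, 2 promyelocyte, 3 monocyte and macrophage and 5 proliferation markers fell. In that fit 1 promyelocyte and 2 monocyte and macrophage markers rose. The shares of all tested genes given above for this comparison apply here too. The lowest B lineage, erythroid, T and NK cell and monocyte and macrophage sums were all those of TBI+DEIX replicate 1, the library lowest in ribosomal protein genes. The lowest neutrophil, promyelocyte, stem and progenitor and proliferation sums lay in other libraries. TBI replicate 1 had the highest erythroid sum (9744) but the lowest ribosomal protein median of the TBI libraries (-0.45). None of the genes on these lists was at 0 in all 12 libraries.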

How the data were processed

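The deposited values are FPKM for each gene, estimated by the authors. Counts were not used here, which leaves total reads unknown. The submitters' processing notes name STAR 2.6, Cufflinks 2.2.1 and the mm10 build, without roles. Per the labels' protocols, mRNA libraries came from the strand-preserving MGIEasy kit. The commonest ratio of low values to those of control replicate 1 was shared, within 0.5%, by 18 genes in TBI+DEIX replicate 1 and by up to 190 in other libraries, and was not used as a measure of depth. All 21853 identifiers matched GENCODE vM21 (GRCm38), which gave symbols and the coding length of each gene's principal transcript. Promoter sequences came from RefSeq (GRCm38.p6).

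Values were tested as log2(FPKM + 1), which understates changes at low levels, with limma 3.58.1 in R 4.3.3 (lmFit, eBayes with trend) in 1 model of 4 group means over 12 libraries (8 residual degrees of freedom), for 10994 genes with at least 1 FPKM in at least 3 libraries. Calls used a Benjamini-Hochberg adjusted p under 0.05 over all tested genes. The fit was run on simulated data, with genes drawn independently and the same SD for a gene in all groups. No library stood apart in that simulation, so it does not bear on the effect of TBI+DEIX replicate 1. Shares were compared by exact permutation, going through every arrangement of the libraries. Spearman's rho was computed with scipy 1.17.1.

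The family and all gene lists were chosen with earlier results of these data known. Members named with values were, per contrast, the 5 largest falls among called genes without overlap, the 5 highest and 5 lowest by mean FPKM, called members of the role lists, tested paralogs and ribosomal proteins outside the rule, and, for other lists, up to 3 called genes of highest mean FPKM; others (Rpl12, Rpl3, Rpl10a, Rpl13a, Rps2, Rps21, Rplp0, Rpl10, Rpsa and Rpl6, and the called genes of short lists) were chosen after their values were seen. Alternatives changed the pseudocount, filter, scaling, libraries, weights, replicate block and length trend. Values of lists, markers and the length relation without TBI+DEIX replicate 1 were added after seeing the data. Values of 2 genes are not reported here.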

Additional observations from a re-analysis of the deposited data

How the results depend on the processing

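Counts of ribosomal protein genes called, 0 in TBI against control, 0 in TBI+DEIX against TBI, 0 in DEIX against control, 43 in TBI+DEIX against control, and 0 in both TBI+DEIX against DEIX and the interaction, moved as follows, all toward lower levels. With only the compared groups in the model they were 8, 0, 13, 5 and 0 for the first 5, where 7.76, 0, 7.78, 8.86 and 0% of tested genes were called lower. With array weights (limma's gene-by-gene method, since the default did not converge) they were 55, 11, 68, 70, 0 and 0 (16.6, 17.5, 17.6, 25.6, 4.19 and 1.26% of tested genes were called lower, so the 11 is below background). With the coding-length adjustment, chosen after seeing the data, they were 1, 2, 1, 57, 0 and 0. The 1, 2 and 1 are not read as an excess, since all-gene shares for them are not given here. TPM gave 0, 1, 1, 64, 0 and 0 (0.937, 2.07 and 11.3% of tested genes called lower for the 1, 1 and 64). TPM without S100a8, S100a9 and Ngp gave 0, 10, 7, 68, 0 and 0 (3.16, 1.98 and 14.3% for the 10, 7 and 68). A mean FPKM of at least 5 gave 1 in TBI+DEIX against TBI (3.45%), and no filter gave 23 in TBI+DEIX against control (9.92%). Leaving out 1 library at a time gave 0 to 8, 0 to 1, 0 to 42, 10 to 58, 0 to 0 and 0 to 0; in TBI+DEIX against control the counts were 10 without control replicate 2 (7.32% of tested genes were called lower), 11 without control replicate 3 (7.73%), 25 without control replicate 1 (8.35%) and 25 without TBI replicate 2 (11.5%). The cause of these moves was not tested, beyond the smaller number of libraries. TPM shifted the median of all tested genes to -0.12 in TBI+DEIX against TBI and in DEIX against control; relative to it the ribosomal protein genes lay at -0.43 and -0.48.

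With the replicate number as a block, 0, 0, 0, 38, 0 and 0 genes were called, 36 of the 38 among the 43, where 11.9% of tested genes were called lower. The numbers did not pair the libraries: of 18 same-number pairs 3 had a correlation of deviations over 0.1, the range was -0.45 to 0.24, and 3 had their best match in their own number.

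Of the 76 genes, 2 turned direction under at least 1 setting in TBI against control, 12 in TBI+DEIX against TBI, 0 in DEIX and 0 in TBI+DEIX against control, 36 in TBI+DEIX against DEIX and 55 in the interaction; no turned value was called, nor was its value in the fit of all libraries. Rps2 in TBI against control ran from -0.06 to 0.17 and Rplp2 in TBI+DEIX against DEIX from -0.18 to 0.13. In TBI+DEIX against TBI, Rps9 was at 0.16 with array weights and 0.068 with the length adjustment, and Rps27 at 0.0056 with array weights. Leaving out 1 library at a time gave -0.18 to 0.22 for Rps9, -0.91 to 0.10 for Rps29, -0.85 to 0.026 for Rpl41 and -1.04 to 0.26 for Rps27, above 0 only without TBI+DEIX replicate 1. In TBI+DEIX against DEIX, array weights gave 0.12 for Rps9, 0.13 for Rps29, 0.36 for Rpl41 and 0.34 for Rps27. Leaving out 1 library at a time gave -0.28 to 0.12, -0.88 to 0.13, -0.50 to 0.37 and -1.01 to 0.29 in that order, again above 0 only without that library. The depth of TBI+DEIX replicate 1 is not known: with no counts, the sampling error of its values cannot be set.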
